A study of Homo sapiens with 6 samples.

Results

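The 10 genes described here were chosen by symbol for their place in the NRF2 pathway, with earlier results of these data known. They are the transcription factor gene NFE2L2, which encodes NRF2, its inhibitor KEAP1, and 8 genes of antioxidant and carbonyl-reducing enzymes (NQO1, HMOX1, GCLC, GCLM, TXNRD1, SRXN1, AKR1C3 and AKR1B1). All 10 were found among the 25330 gene symbols of the count table, and all 10 were among the 14199 genes counted well enough to be tested. All 6 libraries were made from MDA-MB-231, a long-established line of human triple-negative breast cancer, kept in medium with 10% serum. The 3 control libraries carry the genotype label CTRV2 control, and the 3 knockout libraries (RN1) the label RNASEH2A KO. RNase H2, whose catalytic subunit RNASEH2A encodes, cuts out ribonucleotides that were built into DNA. Each group holds RNA of 3 passages. No source used here says whether the knockout cells are 1 clone or a pool, and every p-value therefore rests on the spread among passages.

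In unstressed cells the protein KEAP1, an adaptor of a CUL3 ubiquitin ligase, holds NRF2 and directs it to degradation. Oxidants and electrophiles modify cysteines of KEAP1, NRF2 then accumulates, pairs with a small MAF protein and binds antioxidant response elements near its target genes. Those targets make glutathione, recycle thioredoxin, reduce quinones and carbonyls and supply NADPH. NRF2 is controlled largely at the level of the protein, so its transcript is not a measure of its activity.

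Library totals ran from 25419877 to 31596286 counts. RNASEH2A itself was counted at 0.381 ± 0.196 CPM (counts scaled to an equal library total; SD, n = 3) in controls and 0.359 ± 0.187 in knockouts (exact two-sided permutation p = 0.8, with 0.1 the lowest value possible for 3 against 3). It was too low to be tested, and 40.8% of the exonic bases of its principal transcript are shared with THSD8 on the same strand, so its count does not check the labels and every direction below rests on them. All 9 markers of this type of line were above 1 CPM. Of 5 luminal and receptor markers ERBB2 and GATA3 were above 1 CPM and ESR1, the oestrogen receptor gene, was at 0 in every library. The list summed to 145 to 161 CPM in controls and 143 to 158 in knockouts. Of 5 fibroblast markers 4 were found, all above 1 CPM (COL1A1, COL1A2, LUM and PDGFRB), with a sum of 49.3 to 54.4 CPM in controls and 46.1 to 93.2 in knockouts. Of 5 leukocyte markers 3 were found and CD14 alone was above 1 CPM (sum 4.12 to 4.98 and 2.44 to 4.24), and 0 of 3 endothelial markers were (0.635 to 0.701 and 0.311 to 0.713). All 6 libraries are labelled as the same cell line, and the source of these marker counts was not tested. Over all genes 1718 of 14199, or 12.1%, passed the test (edgeR quasi-likelihood, Benjamini-Hochberg adjusted p under 0.05), 5.88% higher and 6.22% lower in the knockout. Leaving out control replicate 1, 2 or 3 gave 1055, 649 or 550 calls, and leaving out knockout replicate 1, 2 or 3 gave 3430, 1457 or 524.

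The core of the antioxidant response element is written TGACNNNGC, and the windows that hold these letters are shown so that the genes carrying them can be read beside the values that follow. RefSeq promoter windows (GRCh38.p14, 250 bases before to 50 after each start) were found for 9 of the 10 genes, 14 windows in all. Of these 4 hold the core on either strand, or 28.6%, against 13.3% of all 35116 windows of the same length. They belong to GCLM, the second start of KEAP1 and both starts of TXNRD1. Of the windows of tested genes 14.6% hold it. A match is a description of letters and not a bound site, and elements farther from the start lie outside these windows. Each line below reads 5′ to 3′ on the strand of its gene, with the core in capitals. A core on the other strand reads GCNNNGTCA.
GCLM, chr1:93909446-93909474, minus strand: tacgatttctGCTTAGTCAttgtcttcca
KEAP1, chr19:10502784-10502812, minus strand: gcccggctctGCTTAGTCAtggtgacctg
KEAP1, chr19:10502807-10502835, minus strand: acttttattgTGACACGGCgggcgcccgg
TXNRD1, chr12:104215670-104215698, plus strand: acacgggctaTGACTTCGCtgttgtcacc
TXNRD1, chr12:104286920-104286948, plus strand: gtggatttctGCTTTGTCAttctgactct
The cores begin 34 bases before the start in GCLM, 31 and 54 bases before it in KEAP1, and 99 and 102 bases before the 2 starts of TXNRD1. A further TXNRD1 core, 8 bases before the first start, is not printed. GCLM and KEAP1 carry the same 9 letters, TGACTAAGC when read on the element's own strand. None of the 14 windows holds the AP-1 letters TGANTCA or the E-box CACGTG, against 7.71% and 7.26% of all windows.

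Of the 10 genes 1 rose (AKR1C3), 1 fell (GCLM) and 8 did not pass, or 20% called beside the 12.1% of all tested genes. Their median log2 fold change (knockout minus control) was 0.05, against 0.00 over all tested genes. The 3 control and 3 knockout values did not overlap for 3 of the 10 genes, KEAP1, GCLM and AKR1C3, beside 33.5% of all tested genes. In 1 of these the knockouts were higher (16.1% of tested genes) and in 2 lower (17.4%). That share is near the background and is no result about the 10 genes. The values below are CPM on the TMM scale, which corrects each library for its composition.

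**Figure D1:**
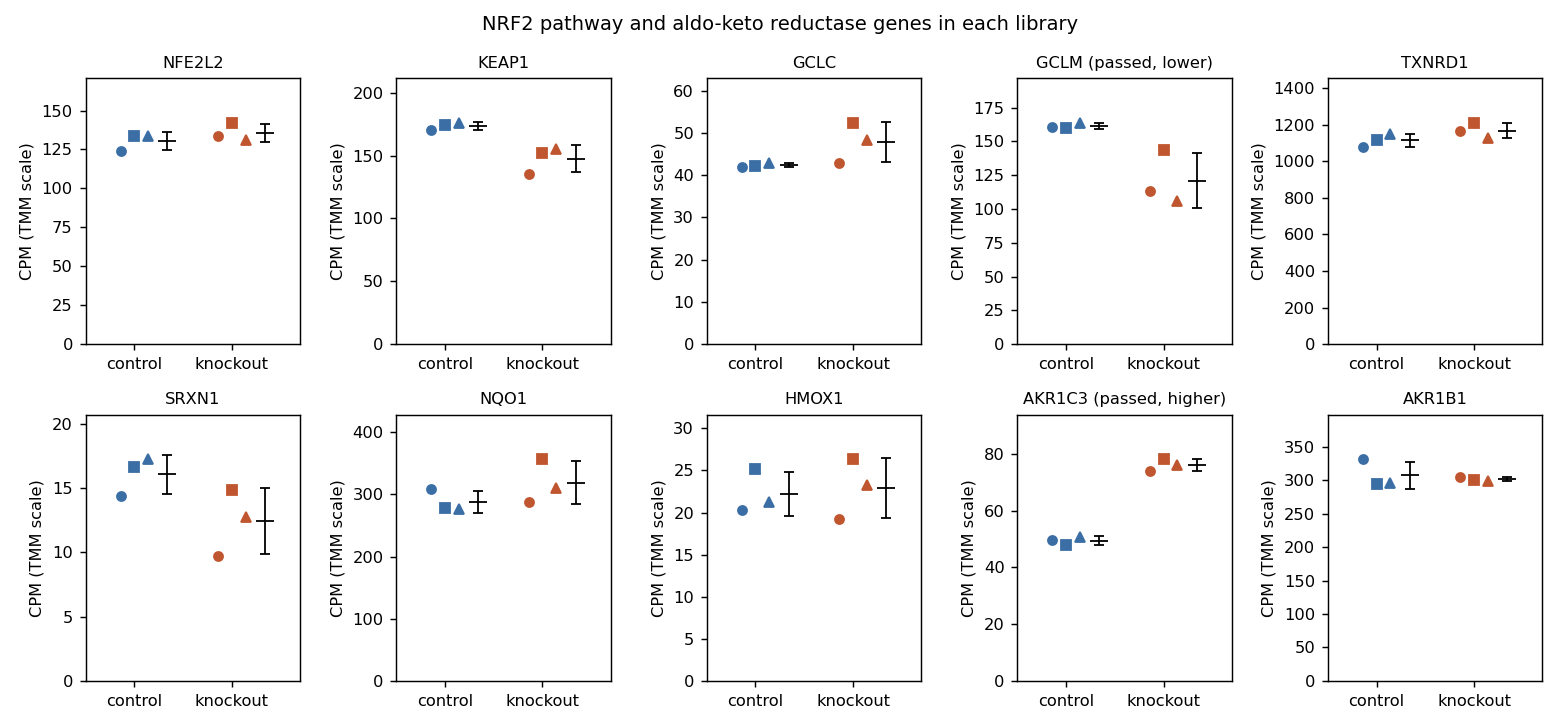
CPM on the TMM scale (vertical axes, each from 0) in the 3 control (blue) and 3 knockout (orange) libraries, 1 panel a gene; circles, squares and triangles are replicates 1, 2 and 3, and the black bar is the mean ± SD. The 3 AKR1C3 knockout values, from 74.1 to 78.1, lie above all controls, and the 3 GCLM knockout values, from 106 to 144, lie below them, whereas the groups overlap in most other panels.

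The transcript of NRF2 itself did not pass. NFE2L2 (chromosome 2, 177227595 to 177392697) stood at 124, 134 and 134 CPM in the controls and 134, 142 and 131 CPM in the knockouts. The groups overlapped, and the log2 fold change was 0.06 ± 0.07 (SE, 95% interval from -0.09 to 0.20, edgeR adjusted p = 0.617). KEAP1 (chromosome 19, 10486120 to 10503741) was at 170, 174 and 176 CPM in the controls and at 136, 152 and 155 CPM in the knockouts. All 3 knockout values lay below all 3 controls, with replicate 1 the lowest. Its log2 fold change of -0.23 ± 0.07 (SE, interval from -0.39 to -0.08) just missed the threshold, at an edgeR adjusted p of 0.0543. It passed with DESeq2 (adjusted p = 0.0407) and in edgeR without knockout replicate 1 (-0.175, adjusted p = 0.033). KEAP1 lies on the arm of chromosome 19 that holds RNASEH2A, and the 204 tested genes within 5 Mb of it had a median of -0.11, with 24 called higher and 41 lower. With that median subtracted KEAP1 was at -0.125 (adjusted p = 0.307).

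Of the list of 11 regulators, with NFE2L2 and KEAP1 in it, edgeR called 0 (beside 12.1% of all tested genes), limma-voom 0 and DESeq2 1 (KEAP1). At an unadjusted edgeR p under 0.05 there were 3, KEAP1, NFE2L1 and MAFG. NFE2L1, a relative of NRF2 that drives proteasome genes, and MAFG, a small MAF partner, had the smallest p-values after KEAP1. NFE2L1 was at 312 ± 13.1 and 353 ± 21.9 CPM in controls and knockouts (0.18 on the log2 scale, edgeR adjusted p = 0.117). NFE2L1 passed without knockout replicate 1 (0.226, adjusted p = 0.00917) and with the replicate number as a block (0.0431), and was at 0.078 (0.523) with the neighbour median subtracted. MAFG was at 113 ± 0.367 and 125 ± 1.79 CPM (0.15, adjusted p = 0.124). BACH1, a repressor that competes for the same elements, was at 57.3 ± 2.35 and 65.1 ± 6.36 CPM (0.18, adjusted p = 0.196). The ligase scaffold CUL3 (-0.10, adjusted p = 0.463) and the autophagy adaptor SQSTM1, which can sequester KEAP1 (0.17, adjusted p = 0.201), did not pass either.

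Glutathione synthesis showed its 2 ligase subunits on opposite sides of 0. GCLC, the catalytic subunit of glutamate-cysteine ligase (chromosome 6, 53497341 to 53616970), was at 42.1, 42.2 and 43.0 CPM in the controls and 42.9, 52.4 and 48.3 CPM in the knockouts. Knockout replicate 1 lay among the controls and the other 2 above them, and the gene did not pass (log2 fold change 0.18 ± 0.09 SE, interval from -0.02 to 0.37, edgeR adjusted p = 0.225), although it did without knockout replicate 1 (0.25, adjusted p = 0.0265). GCLM, the modifier subunit that raises the enzyme's efficiency (chromosome 1, 93885205 to 93909456), was at 160, 160 and 164 CPM in the controls.

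In the knockouts GCLM was at 113, 144 and 106 CPM, all below the controls. The gene fell by 0.42 ± 0.10 on the log2 scale (SE, edgeR adjusted p = 0.0308), a change of -25.1%. Its spread differed between the groups, with a coefficient of variation of 1.25% in controls and 16.6% in knockouts. The call ended without control replicate 1 (adjusted p = 0.0807), 2 (0.102) or 3 (0.12) or knockout replicate 3 (0.135), with log2 fold changes from -0.55 to -0.33 when any library was left out. The 51 tested genes within 5 Mb of GCLM had a median of -0.28, and 16 of them were called lower and 0 higher. With this neighbour median subtracted in the same fit GCLM was at -0.13 (adjusted p = 0.481).

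The ratio of GCLC to GCLM CPM within a library, which needs no scaling between libraries, was 0.262, 0.264 and 0.262 in the controls. In the knockouts it was 0.379, 0.364 and 0.456. The controls agreed closely and every knockout lay above them, with means of 0.263 ± 0.000822 and 0.400 ± 0.0494 (SD, n = 3). This ratio was formed after the values of both genes were known and is given without a test.

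In the thioredoxin system, TXNRD1 is the cytosolic reductase, a selenoprotein that recycles thioredoxin, and SRXN1 is sulfiredoxin, which restores overoxidised peroxiredoxins. TXNRD1 (chromosome 12, 104215779 to 104350305) was at 1076, 1114 and 1151 CPM in controls and 1166, 1210 and 1124 CPM in knockouts. The groups overlapped and the gene did not pass (log2 fold change 0.07 ± 0.05 SE, interval from -0.06 to 0.19, edgeR adjusted p = 0.471). SRXN1 (chromosome 20, 646615 to 653370) was at 14.3, 16.7 and 17.2 CPM in controls and 9.72, 14.8 and 12.8 CPM in knockouts.

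Knockout replicate 1 had the lowest SRXN1 value and knockout replicate 2 lay among the controls. The log2 fold change was -0.37 ± 0.16 (SE, interval from -0.72 to -0.03, edgeR adjusted p = 0.152), and the 56 tested neighbours had a median of -0.32, with 23 called lower and 2 higher. With that median subtracted SRXN1 was at -0.05 (adjusted p = 0.882). In GENCODE 29, 85.0% of the exonic bases of its principal transcript are shared with the gene AL121758.1 on the same strand, so its count is uncertain if the counting left out shared bases.

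NQO1 and HMOX1 are the classical readouts of the pathway. NQO1, a quinone reductase (chromosome 16, 69706996 to 69726951), was at 309, 277 and 277 CPM in the controls and 289, 356 and 311 CPM in the knockouts. The groups overlapped, with knockout replicate 2 the highest library, and the gene did not pass (log2 fold change 0.15 ± 0.09 SE, interval from -0.04 to 0.34, edgeR adjusted p = 0.298, and 0.044 without knockout replicate 1). Its 112 tested neighbours on chromosome 16 had a median of 0.31, with 33 called higher and 2 lower. With that median subtracted NQO1 was at -0.165 (adjusted p = 0.280), so its direction turned.

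HMOX1, haem oxygenase 1 (chromosome 22, 35380361 to 35394214), was at 20.2, 25.1 and 21.2 CPM in controls and 19.2, 26.3 and 23.2 CPM in knockouts. Both groups covered nearly the same range (log2 fold change 0.04 ± 0.13 SE, interval from -0.25 to 0.34, edgeR adjusted p = 0.862). Leaving out single libraries moved its log2 fold change between -0.06 and 0.16, so no direction can be given.

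AKR1C3, an aldo-keto reductase that reduces steroids, prostaglandins and lipid carbonyls (chromosome 10, 5035354 to 5107686), gave the clearest difference of the 10. It was at 49.7, 47.8 and 50.8 CPM in the controls and at 74.1, 78.1 and 76.1 CPM in the knockouts. The groups were far apart relative to their spread, with means of 49.5 ± 1.51 and 76.1 ± 2.00 CPM (SD, n = 3). The gene rose 1.54-fold (log2 fold change 0.62 ± 0.07 SE, interval from 0.47 to 0.77, edgeR adjusted p = 0.000783). It passed under all 16 alternatives run, the summed AKR1C counts among them, with log2 fold changes from 0.56 to 0.72. The 36 tested genes within 5 Mb had a median of -0.10, opposite in sign to AKR1C3. The 2 AKR1C3 promoter windows held 33.7% and 36.7% G and C bases and 0 CpG pairs, whereas the windows of the other 8 genes with a sequence held between 53.7% and 80% G and C bases.

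AKR1C3 has close relatives on chromosome 10, and 12.1% of the 50-base stretches of its principal transcript also occur in transcripts of other genes, all of them AKR1C genes. The coding sequences of AKR1C3 and AKR1C1 agree at 91.4% of their 969 bases in GENCODE 29. Their longest identical coding run, 112 bases across exons 2 and 3 of AKR1C3, shows how far a read could fail to tell them apart, and the 60 bases of exon 4 that differ most show where it could not, with differing bases in capitals.
Shared by AKR1C3 and AKR1C1, chr10:5096473-5097440, plus strand, exonic bases only: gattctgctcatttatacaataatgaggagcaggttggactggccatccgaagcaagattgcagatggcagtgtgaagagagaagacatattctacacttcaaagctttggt
AKR1C3, chr10:5098814-5098873, plus strand: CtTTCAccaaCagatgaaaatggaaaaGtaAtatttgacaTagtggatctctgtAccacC
AKR1C1, chr10:4968321-4968380, plus strand: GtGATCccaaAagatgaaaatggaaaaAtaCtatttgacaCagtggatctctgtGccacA
AKR1C3 held between 85.4% and 85.7% of all counts of AKR1C1, AKR1C2, AKR1C3 and AKR1C4 in the controls, and between 88.8% and 89.8% in the knockouts. AKR1C1 was at 7.34 ± 0.420 and 8.02 ± 0.262 CPM (0.13, edgeR adjusted p = 0.542) and AKR1C2 at 1.01 ± 0.434 and 0.946 ± 0.585 CPM (-0.09, adjusted p = 0.924), and AKR1C4 was too low to be tested. The ratio of AKR1C3 to AKR1C1 CPM was 7.09, 6.65 and 6.50 in controls and 9.59, 9.49 and 9.40 in knockouts. With the 4 genes summed to 1 row the log2 fold change was 0.56 (edgeR adjusted p = 0.00118). AKR1C3 held most of these counts, so the sum largely followed AKR1C3. Any reads left out for matching more than 1 gene would be missing from the sum too. Of the 50-base stretches of AKR1C1 and AKR1C2, 28.7% and 52.2% also occur in other genes. Leaving such reads out would lower these 2 counts more than that of AKR1C3. The AKR1C3 share and its ratio to AKR1C1 would then read too high.

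AKR1B1, aldose reductase, which turns glucose into sorbitol (chromosome 7, 134442350 to 134459284), did not pass. It was at 331, 295 and 296 CPM in controls and 305, 301 and 299 CPM in knockouts. The knockouts lay inside the range of the controls, in which replicate 1 was the highest, and the log2 fold change was -0.03 ± 0.06 (SE, interval from -0.17 to 0.11, edgeR adjusted p = 0.813). Its relative AKR1B10 was at 1.05 ± 0.400 and 0.738 ± 0.471 CPM (-0.52, adjusted p = 0.544). AKR1A1, aldehyde reductase, was at 51.7 ± 6.01 and 52.3 ± 1.42 CPM (0.02, adjusted p = 0.934).

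**Figure D2:**
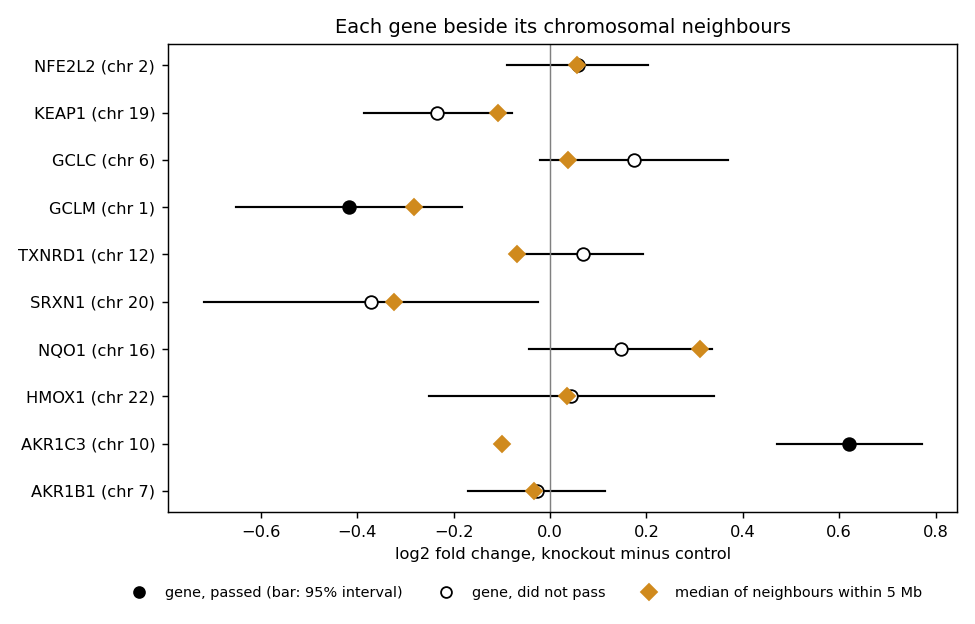
Log2 fold change, knockout minus control (horizontal axis), of each of the 10 genes (circles, filled where the gene passed, with the 95% interval) and the median of the tested genes within 5 Mb on the same chromosome (diamonds). GCLM, SRXN1 and KEAP1 lie on the same side of 0 as their neighbours, NQO1 lies below its neighbours at 0.31, and AKR1C3 at 0.62 lies away from its neighbours at -0.10.

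Between genes, levels were compared as CPM per kilobase of the principal transcript. In the controls TXNRD1 was the highest at 283 ± 9.54 CPM per kilobase (SD, n = 3), followed by AKR1B1 at 218 ± 14.5 and NQO1 at 98.8 ± 6.24. KEAP1 (58.7 ± 0.997), NFE2L2 (45.7 ± 1.98), GCLM (33.2 ± 0.415) and AKR1C3 (27.4 ± 0.837) came next, each apart from its neighbour by more than the spread. HMOX1 at 12.2 ± 1.41 and GCLC at 11.1 ± 0.128 did not differ beyond it, and SRXN1 had the lowest value at 5.96 ± 0.565. The place of SRXN1 is uncertain, since 85.0% of its exonic bases are shared with AL121758.1 and may not have been counted. In the knockouts AKR1C3, at 42.1 ± 1.11, stood above GCLM at 24.9 ± 4.15, and KEAP1 (49.9 ± 3.56) and NFE2L2 (47.6 ± 2.04) were within their spread of each other.

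Among the knockouts the libraries themselves differed for these genes. Replicate 2 held the highest of the 3 knockout values in 8 of the 10 genes, against 34.6% of all tested genes, and replicate 1 in 1, against 40.8%. Among the controls replicate 3 was the highest in 6 of the 10, against 29.9% of tested genes. What set this order was not tested.

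By likeness over the 6 libraries (Pearson r of log2 CPM, as a description, since the points are 2 groups of 3), the genes nearest to AKR1C3 among 10495 at 5 CPM or more were CDYL2 (r = 0.999), PSME2 (0.998), RAB2A (0.997), KIF7 (0.996) and MAX (0.996). CDYL2, a chromodomain protein gene, went from 26.2 to 49.9 CPM, a log2 fold change of 0.93. PSME2, a subunit of the proteasome activator PA28, went from 94.8 to 108 CPM (0.19). Over 2 separate groups such an r mainly reflects the step between them.

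The wider redox lists held 102 genes, the 10 included, of which 95 were tested. In them 13 rose, 6 fell and 76 did not pass, or 20% called against 12.1% of all tested genes, with a median log2 fold change of 0.03. The lists were chosen with earlier results of these data known, so this difference in share is no test of them. Leaving out control replicate 1, 2 or 3 left 4, 3 or 3 higher and 6, 3 or 3 lower, and leaving out knockout replicate 1, 2 or 3 left 24, 7 or 2 higher and 14, 6 or 3 lower. With the neighbour median subtracted 10 of the 19 calls were kept. Under every alternative run, 5 were kept: AKR1C3, SOD3, SLC6A9, ABCC4 and PRDX2. GLRX was lost only without knockout replicate 3, and the other 13 were each lost without control replicate 2, control replicate 3 or knockout replicate 3.

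**Figure D3:**
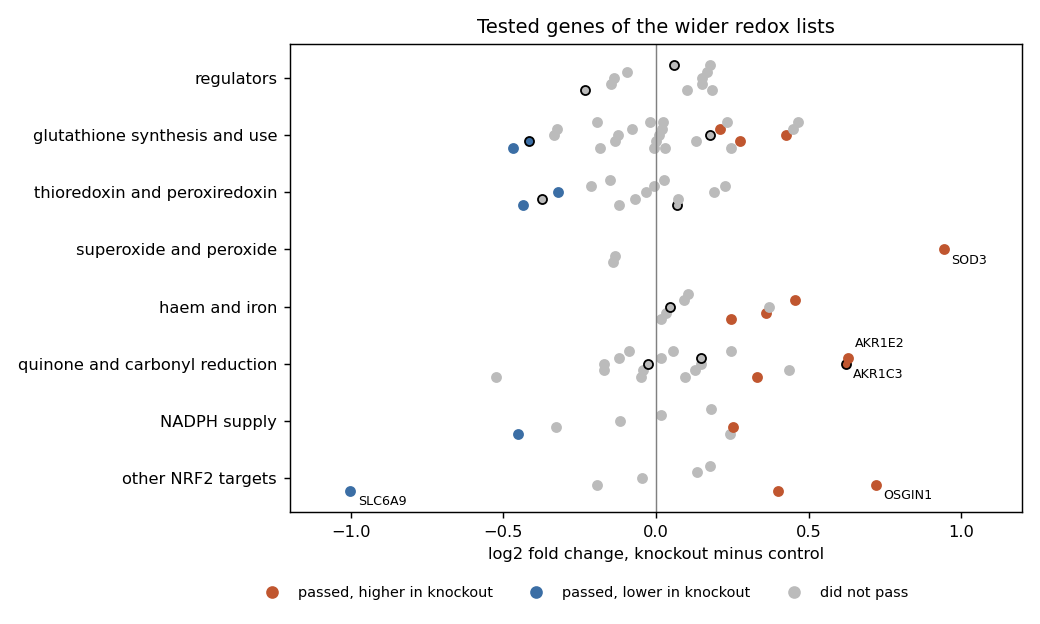
Log2 fold change, knockout minus control (horizontal axis), of the 95 tested genes of the 8 redox lists; each point is a gene, orange and blue mark those that passed as higher or lower, grey those that did not, and a black rim marks the 10 genes described first. Points spread to both sides of 0 in most lists, and SOD3 (0.94) and SLC6A9 (-1.001) lie farthest out.

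Of 3 tested genes for superoxide and peroxide removal 1 rose, or 33.3% called beside 12.1% of all tested genes. SOD2 was not in this list, so the share covers 3 chosen genes and not the function. SOD3, the secreted superoxide dismutase, was at 29.2, 30.1 and 30.2 CPM in controls and 53.9, 55.3 and 62.5 CPM in knockouts. The groups were well apart (log2 fold change 0.94 ± 0.08 SE, edgeR adjusted p = 0.000304). The other 2, the cytosolic SOD1 (-0.13, edgeR adjusted p = 0.181) and catalase, CAT (-0.14, adjusted p = 0.237), did not pass.

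Of 25 tested genes of glutathione synthesis and use 3 rose and 2 fell, GCLM among the latter. That is 20% called beside 12.1% of all tested genes. GLRX, glutaredoxin, went from 26.2 ± 0.645 to 35.2 ± 0.786 CPM (0.43, edgeR adjusted p = 0.00779) and did not pass without knockout replicate 3 (adjusted p = 0.0507). GSTP1, a glutathione transferase, rose by 0.28 (adjusted p = 0.0223) and GPX3, a secreted glutathione peroxidase chosen after its value was seen, by 0.21 (adjusted p = 0.0392). Neither passed with the neighbour median subtracted or without control replicate 1, 2 or 3 or knockout replicate 2 or 3. ABCC4, an export pump for organic anions and cyclic nucleotides, went from 64.2 ± 2.39 to 46.4 ± 1.54 CPM (-0.47, adjusted p = 0.00356). SLC7A11, the cystine importer that feeds glutathione synthesis, was at 113, 116 and 120 CPM in controls and 116, 188 and 179 CPM in knockouts. Its knockout replicate 1 lay among the controls, and it did not pass (0.47 ± 0.15 SE, adjusted p = 0.0747), except without that library (0.655, edgeR adjusted p = 1.63e-05), without a count filter (0.00112), with the replicate number as a block (0.00898) and in DESeq2 (0.0162).

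In the thioredoxin and peroxiredoxin list 0 of 14 rose and 2 fell. The 14.3% called is near the 12.1% of all tested genes and is no result about the list. PRDX2, a cytosolic peroxiredoxin, went from 153 ± 2.98 to 113 ± 3.38 CPM (-0.43 ± 0.06 SE, edgeR adjusted p = 0.00235). It lies at 12796820 to 12801859 on chromosome 19, beside RNASEH2A at 12806556 to 12815201, and its neighbours had a median of -0.21. With that subtracted it was at an adjusted p of 0.0494. PRDX6, which also reduces phospholipid hydroperoxides, changed by -0.32 (adjusted p = 0.00968, and 0.228 with the neighbour median of -0.19 subtracted), and was not called without control replicate 2 or 3 or knockout replicate 3. Thioredoxin itself, TXN, was at 318 ± 0.370 and 274 ± 22.3 CPM (-0.21, adjusted p = 0.0745). TXN passed without knockout replicate 1 (-0.15, edgeR adjusted p = 0.0472) and with the replicate number as a block (-0.216, adjusted p = 0.0256), and was at -0.143 (0.247) with the neighbour median subtracted.

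Of 9 haem and iron genes 3 rose and 0 fell, or 33.3% called beside 12.1% of all tested genes. The iron exporter SLC40A1, ferroportin, rose by 0.45 (edgeR adjusted p = 0.0293), the constitutive haem oxygenase HMOX2 by 0.24 (adjusted p = 0.0332) and FTL, the ferritin light chain, by 0.36 (adjusted p = 0.0337). FTL was at 1489, 1470 and 1577 CPM in controls and 1668, 2218 and 1932 CPM in knockouts, with replicate 1 the closest to the controls. FTH1, the heavy chain, chosen after its value was seen, was at 345 ± 3.46 and 349 ± 25.3 CPM (0.02, adjusted p = 0.897). With the neighbour median subtracted neither FTL (adjusted p = 0.105) nor HMOX2 (0.0704) was called. FTL and SLC40A1 lost the call without control replicate 1, 2 or 3 or knockout replicate 2 or 3, and HMOX2 without control replicate 1, 2 or 3 or knockout replicate 3.

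In the quinone and carbonyl list 3 of 19 tested genes rose (AKR1C3, AKR7A2 and AKR1E2) and 0 fell. The 15.8% called is near the 12.1% of all tested genes and is no result about the list. AKR7A2, an aldehyde reductase, went from 74.5 ± 4.44 to 93.8 ± 7.49 CPM (0.33, edgeR adjusted p = 0.0283). AKR1E2, from 3.51 ± 0.399 to 5.43 ± 0.825 CPM, passed narrowly (0.63, adjusted p = 0.0498) and did not pass in limma-voom. Both calls ended without control replicate 1, 2 or 3 or knockout replicate 2 or 3.

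In the list for NADPH supply, ME1, malic enzyme, fell from 38.7 ± 2.12 to 28.2 ± 5.31 CPM (-0.45 ± 0.13 SE, edgeR adjusted p = 0.0451). The ME1 call ended without control replicate 1, 2 or 3, without knockout replicate 2 or 3, or without TMM factors. GSTP1, called higher, and ME1, called lower, carry the same core letters near their starts. The pair was picked with its calls known. The GSTP1 call ended without the same libraries as that of ME1, and with the neighbour median subtracted. Whether these letters bear on direction was not tested.
GSTP1, chr11:67583736-67583764, plus strand: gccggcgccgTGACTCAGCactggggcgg
ME1, chr6:83431170-83431198, minus strand: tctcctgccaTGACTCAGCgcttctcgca
Here the core overlaps the AP-1 letters TGANTCA. PIR (0.135, edgeR adjusted p = 0.508) and SLC3A2 (0.244, adjusted p = 0.499) hold the same core letters near their starts and did not pass. The windows printed here are therefore only those of carriers of these letters that were called. Of the 99 windows of the wider lists without the 10 genes 20.2% hold the antioxidant response element core.

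Of 7 other reported NRF2 targets 2 rose and 1 fell, or 42.9% called beside 12.1% of all tested genes. OSGIN1, an oxidative stress-induced growth inhibitor gene, was at 28.4, 32.8 and 33.1 CPM in controls and 38.2, 61.6 and 55.5 CPM in knockouts (0.72 ± 0.16 SE, edgeR adjusted p = 0.018). It lies on chromosome 16, where the genes within 5 Mb stood at a median of 0.28, and it missed the threshold once that was subtracted (0.125) or without control replicate 1, 2 or 3 or knockout replicate 3. ABHD4, a lipase, rose by 0.40 (adjusted p = 0.0126, and 0.198 with the neighbour median of 0.21 subtracted), and was not called without control replicate 2 or 3 or knockout replicate 3. SLC6A9, the glycine transporter GLYT1, was at 32.03, 30.5 and 32.3 CPM in controls and 17.1, 14.1 and 16.2 CPM in knockouts. The groups were far apart, with a log2 fold change of -1.001 ± 0.097 (SE, adjusted p = 0.000519).

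**Figure D4:**
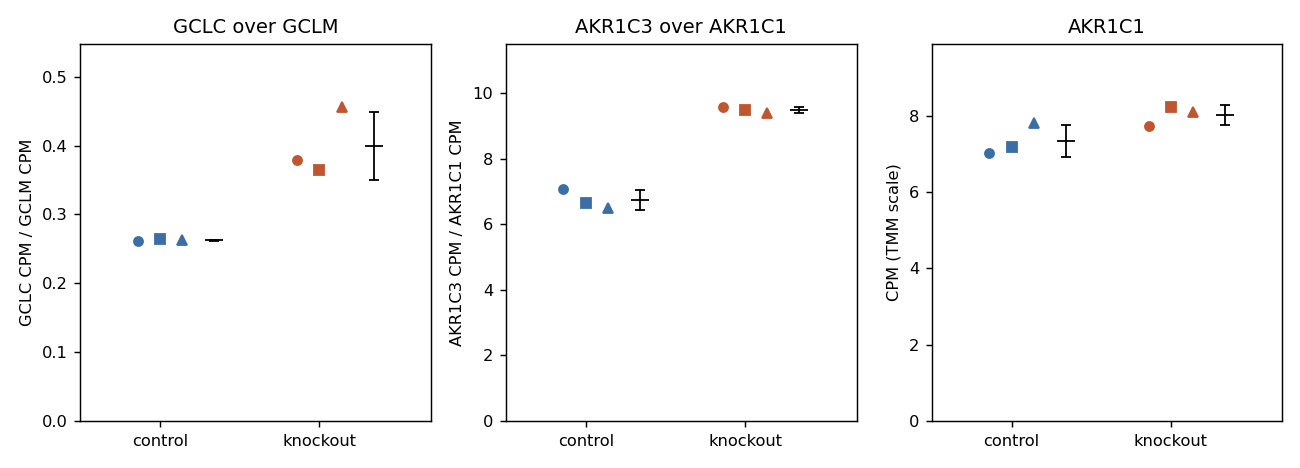
Ratio of GCLC to GCLM CPM, ratio of AKR1C3 to AKR1C1 CPM and AKR1C1 level (CPM on the TMM scale) in the 3 control (blue) and 3 knockout (orange) libraries, with replicates 1, 2 and 3 as circles, squares and triangles and the mean ± SD in black. Both ratios are higher in every knockout than in every control, while AKR1C1 overlaps between the groups.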

How the data were processed

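Poly-A selected, strand-specific libraries from 3 passages of each genotype were sequenced, per the labels' protocols. The submitters' processing notes name FastQC, STAR version 2 and GRCh38. The counting tool, strand setting and annotation behind the counts are not stated there. The deposited table holds raw read counts per gene symbol, per the file headers and values. A deposited table of log2 CPM, scaled and filtered by the authors in a way not given here, was used for 1 alternative.

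Counts were tested with edgeR 4.0.16 in R 4.3.3 (filterByExpr, TMM, quasi-likelihood F test on the group term, two-sided, Benjamini-Hochberg over all 14199 genes, adjusted p under 0.05). The script was tested on simulated data. There it recovered 58.2% of 1.5-fold, 74.6% of 2-fold and 97.0% of 4-fold changes, and 7.83% of its calls were false. A gene that did not pass can therefore still have changed. Standard errors are the log2 fold change divided by the square root of F, and intervals are at 95%. The RNASEH2A permutation test used log2(CPM + 0.5). Positions and exonic lengths came from GENCODE 29 (GRCh38), which matched 25079 of 25330 symbols, and the neighbour median covers tested genes within 5 Mb, the 10 genes left out. Replicates differed beyond counting noise (chi-square of 2.49 to 36.9 per degree of freedom) and were kept apart. Replicate 1 stood farthest off in both groups. Knockout replicate 1 was at 36.9 and 23.9 against replicates 2 and 3, which were at 6.99 against each other. Control replicate 1 was at 12.1 and 10.9 against replicates 2 and 3, which were at 2.49. Counts of 0 allow up to 3 counts, or 0.0949 to 0.118 CPM, for counting error only.

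The genes and lists were chosen with earlier results of these data known. Named are the 10 genes, up to 4 called genes per wider list by p (the 2 smallest p where none was called), and the other AKR1A, AKR1B and AKR1C genes. Also named are BACH1, CUL3, SQSTM1, SLC7A11, TXN and FTL, PIR and SLC3A2 for their core letters, and the 5 genes most like the member of smallest p. A result that falls under this rule is not reported here. Alternatives were RLE factors, library size only, DESeq2 1.42.0, voom and trend fits of limma 3.58.1, 2 other filters, the replicate block, neighbour subtraction, summed AKR counts and leaving out each library.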

Additional observations from a re-analysis of the deposited data

How the results depend on the processing

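Beside 1718 genes called (835 higher, 883 lower), the replicate number as a block gave 3099 (1506 and 1593) and neighbour subtraction 1022 (525 and 497); leaving out 1 library gave 524 to 3430 (261 to 1629 higher, 263 to 1801 lower). Of the 10 genes, 1 to 3 were called higher and 0 to 2 lower when 1 library was left out. DESeq2 called 2 lower (KEAP1 and GCLM), the block 3 (SRXN1 at an adjusted p of 0.0259, KEAP1 at 0.015, and GCLM) and neighbour subtraction 0. The wider lists gave 2 to 24 higher and 3 to 14 lower without 1 library, 12 lower with the block, and 6 higher with neighbour subtraction. Fewer libraries leave fewer degrees of freedom, but the count rose without knockout replicate 1, and the cause was not tested. Deviations from the group means of same-numbered libraries correlated at 0.316, 0.139 and 0.086 for replicates 1, 2 and 3. Between each control replicate and the knockouts of other numbers they lay from -0.243 to -0.154, -0.183 to 0.091 and -0.18 to 0.141. These values do not settle whether same-numbered libraries were paired, so the block is given as an alternative only. No scaling alternative moved the median of all genes by more than 0.0126 on the log2 scale. Fewer than 20 counts per library limit AKR1C2 and AKR1B10 in some libraries.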
